A study of Mus musculus with 16 samples.

Results

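The genes described here are 10 surface proteins with which an antigen-presenting cell stimulates or restrains T cells, chosen by symbol out of 32697 genes in the count table. They are Cd40, Cd80, Cd86, Cd83, Icosl, Cd274, Pdcd1lg2, Cd200, Tnfrsf9 and Tnfrsf4, and all 10 were found and passed the filter on low counts. RNA came from tumours that the mouse melanoma line YUMM1.7 formed in female mice. The design text calls the sequenced cells sorted cDC1s (type 1 conventional dendritic cells), a kind that excels at cross-presenting antigen to CD8 T cells. The 16 libraries formed 4 groups of 4 by genotype label, namely Ikbkb-deleted (IKKbdeltaXCR1), Ikbkb-floxed (IKKbFF), Irf1-deleted (IRF1deltaXCR1) and Irf1-floxed (IRF1FF). Tumours had grown to between 200 and 350 mm3 and received no other treatment. The deletion labels name XCR1, a chemokine receptor of cDC1s, so the deletion is limited to cells that have used that driver, and RNA of other cells would carry intact alleles. The floxed groups carried the same conditional allele as the deleted groups they were set against. Only the Ikbkb mice appear in the design text and in the growth and treatment notes, so the cell type, sex and tumour size are stated for those mice. The extraction notes of all 16 libraries mention sorted cells but not which, and a library was placed in an Irf1 group by its genotype label alone. Replicates are numbered as the record lists them. Whether they are separate animals is not stated, and the p-values then cover the spread between libraries, which may be technical.

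A naive T cell needs a signal through CD28 beside its antigen, and CD80 and CD86 on dendritic cells supply it, while CTLA-4 competes for the same ligands and restrains the cell. PD-L1 (Cd274) and PD-L2 (Pdcd1lg2) bind PD-1 and damp T cells that already respond, and CD200 damps myeloid cells through its own receptor. CD40 is the receptor through which helper T cells license dendritic cells, and it signals to NF-kB. Ikbkb encodes IKK-beta, a kinase of the canonical NF-kB pathway, and the product of Irf1 is a transcription factor that NF-kB and interferons induce. Dendritic cells in tumours raise many of these surface proteins together when they mature and leave for the lymph node, and that state is marked by Ccr7 and Fscn1. Tnfrsf9 (4-1BB) and Tnfrsf4 (OX40) are receptors of the TNF family, best known on activated and regulatory T cells, and not ligands.

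The windows of 250 bases before the annotated start site are shown for 4 genes, because NF-kB and IRF factors bind short motifs of this kind. They were taken from RefSeq on build GRCm38.p6, which held 8 windows for 7 of the 10 genes. Cd40, Cd86 and Cd83 are not shown. The searches used the kappa-B consensus by its name and the IRF motif AANNGAAA, on both strands, and capitals mark each match. The Pdcd1lg2 window (chr19:29410669-29410918, plus strand) held a kappa-B match 244 bases before the start and an IRF match 35 bases before it. The Cd274 window (chr19:29367188-29367437, plus strand) held an IRF match 175 bases before the start. The window of the second Tnfrsf9 start (chr4:150927749-150927998, plus strand) held 2 overlapping kappa-B matches that begin 43 and 42 bases before the start. The Icosl window (chr10:78069118-78069367, plus strand) held a kappa-B match 111 bases before the start.
Pdcd1lg2: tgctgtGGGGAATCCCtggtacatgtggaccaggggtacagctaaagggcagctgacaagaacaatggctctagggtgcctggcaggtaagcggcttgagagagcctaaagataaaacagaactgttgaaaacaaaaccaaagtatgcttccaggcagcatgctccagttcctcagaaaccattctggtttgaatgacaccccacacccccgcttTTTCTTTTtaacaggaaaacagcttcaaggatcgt
Cd274: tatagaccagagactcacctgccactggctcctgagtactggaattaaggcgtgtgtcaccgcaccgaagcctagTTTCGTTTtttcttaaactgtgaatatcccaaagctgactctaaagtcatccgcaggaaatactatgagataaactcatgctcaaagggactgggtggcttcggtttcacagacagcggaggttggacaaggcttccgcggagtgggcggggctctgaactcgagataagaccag
Tnfrsf9: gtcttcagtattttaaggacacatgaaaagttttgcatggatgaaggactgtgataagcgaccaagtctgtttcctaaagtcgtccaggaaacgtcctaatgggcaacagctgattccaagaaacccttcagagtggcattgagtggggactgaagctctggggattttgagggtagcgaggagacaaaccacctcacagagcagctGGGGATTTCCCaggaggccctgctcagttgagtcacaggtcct
Icosl: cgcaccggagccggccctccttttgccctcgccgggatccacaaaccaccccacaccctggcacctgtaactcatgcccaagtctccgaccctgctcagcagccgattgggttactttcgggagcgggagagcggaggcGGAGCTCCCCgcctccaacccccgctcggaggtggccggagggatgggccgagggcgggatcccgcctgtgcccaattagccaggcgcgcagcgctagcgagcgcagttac
Over all 8 windows, 3 held a kappa-B match and 5 an IRF match. The windows with an IRF match were those of Cd274, Pdcd1lg2, Cd200, Tnfrsf4 and the other Tnfrsf9 start. Among 32851 RefSeq windows of the same length, 7.25% held a kappa-B match and 21.3% an IRF match. The Cd80 window held neither. A match is a description of the letters and shows no binding.

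Library totals ran from 16478671 to 27433818 reads, and every one of the 10 genes had at least 82 reads in each library. Levels are given as CPM, the read count of a gene relative to the total of its library, with totals scaled by the trimmed mean of M values. Ikbkb measured 46.3, 28.5, 37.1 and 37.8 CPM in the Ikbkb-deleted libraries, against 45.1, 44.5, 121 and 48.6 CPM in the Ikbkb-floxed libraries (log2 fold change -0.79 with SE 0.33, edgeR adjusted p = 0.988). Irf1 measured 299, 123, 145 and 98.6 CPM in the libraries labelled Irf1-deleted, against 141, 234, 152 and 268 CPM in the Irf1-floxed libraries (-0.26, SE 0.40, edgeR adjusted p = 1). The library labelled Irf1-deleted replicate 1 thus lay above every Irf1-floxed library for the gene it should lack. The labels do not say which exons were floxed, so reads outside the deleted part may remain. The defining cDC1 markers Xcr1 and Clec9a were detected in all 16 libraries, and the 16 cDC1 identity genes summed to between 963 and 10285 CPM. Ikbkb-deleted replicate 1 and Ikbkb-floxed replicate 3 stood apart with sums of 10285 and 10078 CPM, where no other library passed 4356 CPM. Markers of other cells were present too, with macrophage and monocyte genes at 4053 to 18231 CPM, fibroblast and endothelium genes at 6374 to 31414 CPM, and T and NK cell genes at 72.6 to 2059 CPM. B cell genes reached 363 CPM. In such bulk libraries fewer cells of a type and less RNA per cell cannot be told apart.

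Per kilobase of merged exon, the level of Cd83 was the highest of the 10 genes, with a median of 100.1 CPM per kb over the 16 libraries. Tnfrsf9 followed at 36.4, Cd86 at 25.7, Cd40 at 20.1, Tnfrsf4 at 19.8 and Cd200 at 17.1 CPM per kb. Cd274, Pdcd1lg2, Cd80 and Icosl were lower, at medians of 9.88, 7.31, 3.04 and 2.80 CPM per kb. Cd83 exceeded Tnfrsf9 within 14 of 16 libraries and Cd200 exceeded Cd274 within 15. Neighbours such as Cd40 and Tnfrsf4 changed places between libraries, with Cd40 higher in 4 of 16. The genes also differed in how far they varied between libraries, from a 7.08-fold range for Tnfrsf9 and an 8.13-fold range for Cd200 to 67.9-fold for Cd274 and 74.1-fold for Cd83. All 10 genes had their highest level in Ikbkb-floxed replicate 3.

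**Figure D1:**
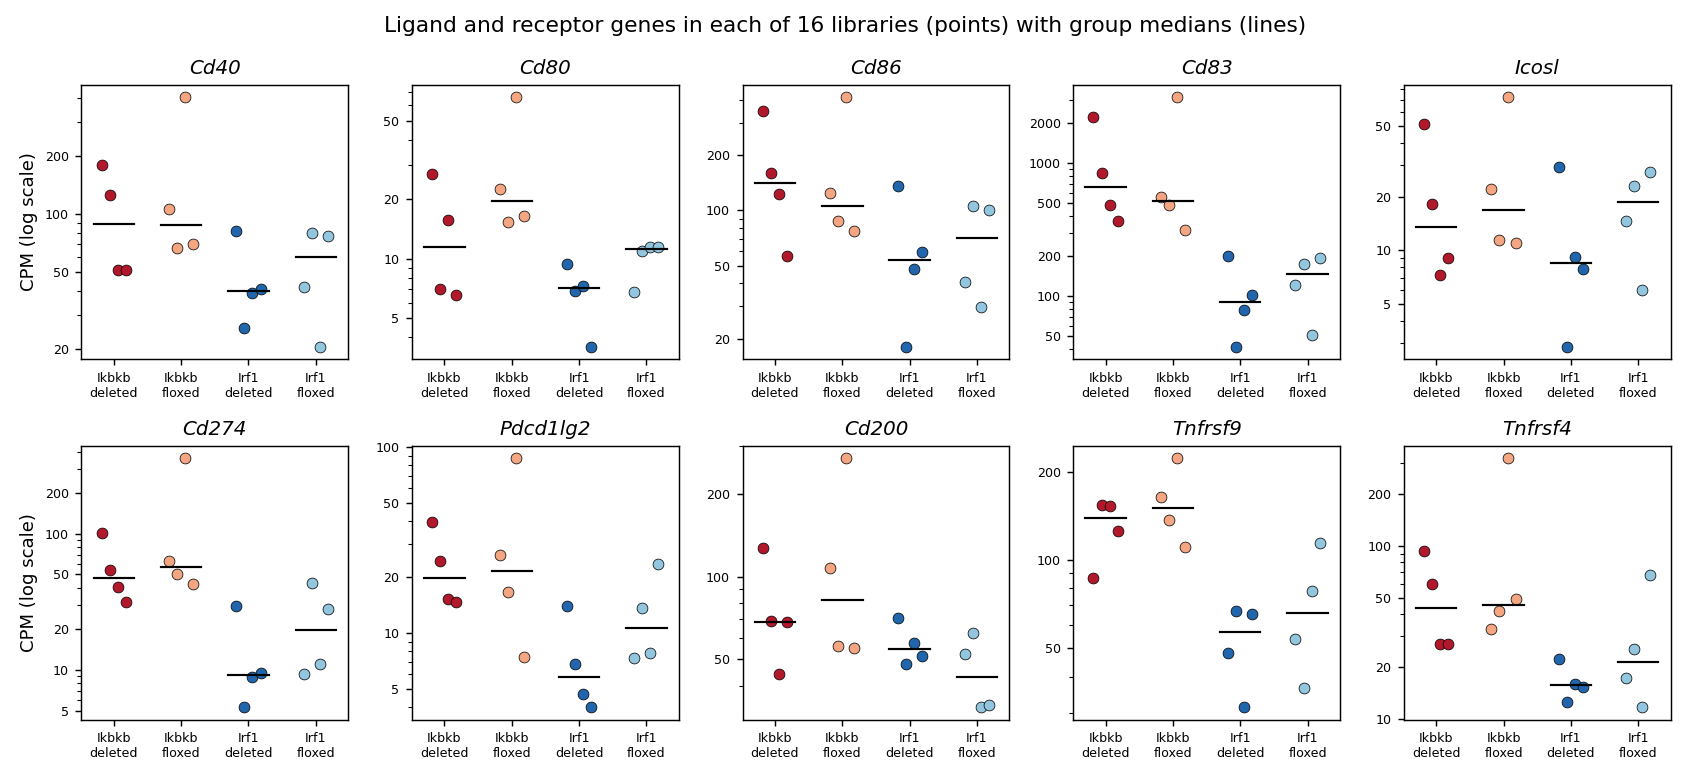
CPM on a log scale for each of the 10 genes, with 1 point for each of the 4 libraries of a group and a line at the group median. Ikbkb-floxed replicate 3 is the highest point in every panel, and Cd83 is the only gene of the 10 whose 8 Ikbkb-set libraries (313 to 3112 CPM) all lie above its 8 Irf1-set libraries (42.0 to 202 CPM). The share of all genes with such a separation was not counted.

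The Ikbkb-deleted libraries were set against the Ikbkb-floxed ones to ask whether surface genes that NF-kB can drive differed, and no gene of the 10 passed the threshold of an adjusted p under 0.05. All 10 had a lower mean in the Ikbkb-deleted libraries, with log2 fold changes from -0.03 for Cd86 to -1.19 for Cd274 and a median of -0.61. The median over all 16040 genes tested was -0.02, and edgeR called 0% of them in this comparison, with 769 (297 higher and 472 lower) at an unadjusted p under 0.05. DESeq2 called 38 genes (0.237%), and none of the 10. That direction rested on Ikbkb-floxed replicate 3, since without it 8 of the 10 genes had a higher mean in the Ikbkb-deleted libraries and the median was 0.32. Without Ikbkb-deleted replicate 1 all 10 had a lower mean, with a median of -1.06. Without both of these libraries, a choice made after the data were seen, 6 genes had a lower and 4 a higher mean, with a median of -0.11. T and NK cell genes also had lower means in the Ikbkb-deleted libraries in 19 of 19 cases, with sums of 259 to 612 CPM against 316 to 2059 CPM in the Ikbkb-floxed libraries. The 15 mature dendritic cell genes tested did so in 15 of 15 cases, with sums of 3126 to 6472 CPM against 3391 to 10653 CPM in the Ikbkb-floxed libraries. Ikbkb-floxed replicate 3 held the highest sum of both lists. The other controls held 316, 352 and 545 CPM of T and NK cell genes and 4431, 3459 and 3391 CPM of mature dendritic cell genes. The part of either list in the values of the 10 genes was not tested.

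The libraries labelled Irf1-deleted were set against the Irf1-floxed ones in the same way, and again no gene of the 10 passed. In the libraries labelled Irf1-deleted 9 of the 10 had a lower mean, from -0.09 for Cd86 to -0.89 for Tnfrsf4, and Cd200 had a higher one (0.32), with a median of -0.47. The background was 0% called by edgeR, a median of -0.02 over all genes and 419 genes (224 higher and 195 lower) at an unadjusted p under 0.05, while DESeq2 called 6 genes (0.0374%) and none of the 10. Without the library labelled Irf1-deleted replicate 1, in which Irf1 itself was high, the same count of 9 lower and 1 higher was found with a median of -0.82. T and NK cell genes had lower means in the libraries labelled Irf1-deleted in 18 of 19 cases, with sums of 98.1 to 259 CPM against 72.6 to 799 CPM in the Irf1-floxed libraries. Their part in these values was not tested. In each deletion the libraries of both groups overlapped for all 10 genes, where 1.7% of all genes did not overlap in the Ikbkb comparison and 2.89% in the Irf1 comparison.

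**Figure D2:**
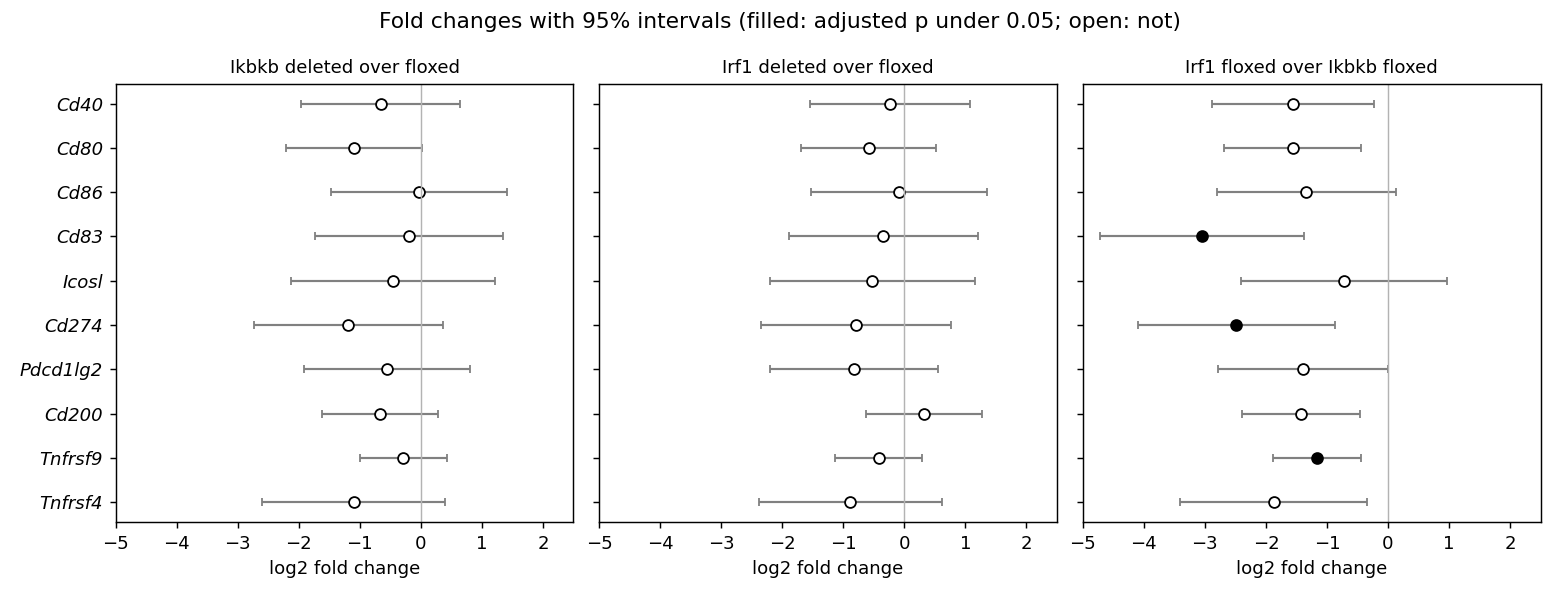
Log2 fold changes (points) with 95% intervals (bars) for the 10 genes, in the Ikbkb deletion, the Irf1 deletion and the Irf1-floxed libraries over the Ikbkb-floxed libraries. Filled points passed an adjusted p under 0.05. The intervals of both deletions include 0 for every gene, and 3 genes are filled in the comparison of the floxed groups, namely Cd83, Cd274 and Tnfrsf9.

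Cd40 (ENSMUSG00000017652, mm10 chr2:165055627-165072948, plus strand), the receptor for T cell help, measured 180.2, 126, 51.1 and 51.7 CPM in the Ikbkb-deleted libraries and 106, 66.8, 403 and 70.1 CPM in the Ikbkb-floxed libraries. A single control library, replicate 3, lay above the rest and the groups overlapped, and the log2 fold change was -0.66 (SE 0.62, edgeR adjusted p = 1). Cd40 measured 81.7, 25.7, 39.01 and 40.7 CPM in the libraries labelled Irf1-deleted, against 42.2, 79.8, 20.6 and 77.4 CPM in the Irf1-floxed libraries (-0.23, SE 0.61, edgeR adjusted p = 1). Both groups of the Irf1 set spread over the same range. The interval of the fold was 0.256 to 1.57 for the Ikbkb deletion and 0.344 to 2.1 for the Irf1 deletion, so a change by a factor of 2 in either direction was not told apart in the Irf1 set.

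Cd83 (ENSMUSG00000015396, mm10 chr13:43784775-43803132, plus strand) encodes an immunoglobulin-family protein that marks mature dendritic cells. It measured 2223, 837, 485 and 367 CPM in the Ikbkb-deleted libraries. In the Ikbkb-floxed libraries it measured 559.9, 486, 3112 and 313 CPM (log2 fold change -0.19 with SE 0.73, edgeR adjusted p = 1). Each of these groups had 1 library far above the other 3, replicate 1 among the deleted and replicate 3 among the floxed. In the Irf1 set it measured 202, 42.01, 79.5 and 103 CPM in the libraries labelled Irf1-deleted and 121, 175, 51.2 and 195 CPM in the Irf1-floxed libraries (-0.35, SE 0.73, edgeR adjusted p = 1). The 8 Irf1-set libraries all lay below the 8 Ikbkb-set libraries, which was so for no other gene of the 10. The share of all genes that separate the sets in this way was not counted, so nothing is read from it.

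Cd80 (ENSMUSG00000075122, mm10 chr16:38455561-38496335, plus strand), a ligand of CD28 and CTLA-4, had the smallest unadjusted p of the 10 genes in the Ikbkb deletion. It measured 27.1, 7.06, 15.8 and 6.53 CPM in the Ikbkb-deleted libraries and 22.7, 15.4, 65.8 and 16.5 CPM in the Ikbkb-floxed libraries. Of the Ikbkb-deleted libraries 2 lay below every control and 1 lay above 3 of them. The log2 fold change was -1.09 (SE 0.52, edgeR unadjusted p = 0.0541, adjusted p = 1), and it was -0.37 without Ikbkb-floxed replicate 3. In the libraries labelled Irf1-deleted Cd80 measured 9.39, 6.89, 7.31 and 3.59 CPM, against 6.76, 11.02, 11.5 and 11.5 CPM in the Irf1-floxed libraries (-0.59, SE 0.52, edgeR adjusted p = 1). Replicates 2, 3 and 4 of the floxed group lay above all 4 deleted libraries, and replicate 1 below 3 of them.

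Cd86 (ENSMUSG00000022901, mm10 chr16:36603869-36666081, minus strand), the other CD28 ligand, had nearly equal means in both comparisons. It measured 349, 160.3, 122 and 56.6 CPM in the Ikbkb-deleted libraries and 125, 87.5, 412 and 77.3 CPM in the Ikbkb-floxed libraries (log2 fold change -0.03 with SE 0.68, edgeR adjusted p = 1). In the Irf1 set it measured 136, 18.1, 47.9 and 59.6 CPM in the libraries labelled Irf1-deleted and 40.9, 106, 29.7 and 101 CPM in the Irf1-floxed libraries (-0.09, SE 0.68, edgeR adjusted p = 1). The groups overlapped in both sets, and the 95% interval of the fold ran from 0.361 to 2.66 in the Ikbkb deletion and from 0.346 to 2.56 in the Irf1 deletion. Nearly equal means at this spread do not show that Cd86 was the same.

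Icosl (ENSMUSG00000000732, mm10 chr10:78069302-78083913, plus strand), the ligand of ICOS on T cells, was the lowest of the 10 genes per kilobase. It measured 50.95, 18.05, 7.22 and 9.02 CPM in the Ikbkb-deleted libraries and 22.2, 11.4, 72.2 and 10.96 CPM in the Ikbkb-floxed libraries (log2 fold change -0.45 with SE 0.79, edgeR adjusted p = 1). It measured 29.3, 2.87, 9.13 and 7.83 CPM in the libraries labelled Irf1-deleted and 14.5, 22.8, 5.95 and 27.6 CPM in the Irf1-floxed libraries (-0.53, SE 0.79, edgeR adjusted p = 1). Replicate 1 of each deleted group held over 2 times the level of any other library of that group, and the groups overlapped.

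Among the inhibitory ligands, Cd274 (ENSMUSG00000016496, mm10 chr19:29367455-29388095, plus strand) had the lowest log2 fold change of the 10 genes in the Ikbkb deletion. It measured 101, 53.5, 40.2 and 31.3 CPM in the Ikbkb-deleted libraries and 62.5, 50.6, 358 and 42.5 CPM in the Ikbkb-floxed libraries (-1.19, SE 0.73, edgeR adjusted p = 1). Ikbkb-floxed replicate 3 held 5.73 times the next control, the other 3 controls lay inside the range of the deleted libraries, and without it the log2 fold change was 0.12. In the libraries labelled Irf1-deleted Cd274 measured 29.3, 5.28, 8.79 and 9.49 CPM, against 9.29, 43.5, 11.01 and 28.02 CPM in the Irf1-floxed libraries (-0.80, SE 0.73, edgeR adjusted p = 1). Without the library labelled Irf1-deleted replicate 1 this was -1.55 (edgeR adjusted p = 1). Exons of Cd274 share 511 bases with AC119228.1, an antisense gene on the other strand, and the strand setting of the counts is not given in the sources used here, so reads of both cannot be told apart.

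Pdcd1lg2 (ENSMUSG00000016498, mm10 chr19:29410919-29471161, plus strand) encodes the other PD-1 ligand. It measured 39.7, 24.3, 15.2 and 14.6 CPM in the Ikbkb-deleted libraries and 26.3, 16.7, 87.1 and 7.47 CPM in the Ikbkb-floxed libraries (log2 fold change -0.55 with SE 0.64, edgeR adjusted p = 1). It measured 14.01, 6.85, 4.74 and 3.998 CPM in the libraries labelled Irf1-deleted and 7.40, 13.6, 7.84 and 23.7 CPM in the Irf1-floxed libraries (-0.83, SE 0.65, edgeR adjusted p = 1). In the Irf1 set 3 of the 4 deleted libraries lay below every control. Cd200 (ENSMUSG00000022661, mm10 chr16:45382135-45409053, minus strand) differed from the other 9 genes in the sign of its Irf1 value. It measured 127, 69.1, 44.1 and 68.2 CPM in the Ikbkb-deleted libraries and 108, 55.99, 272 and 54.98 CPM in the Ikbkb-floxed libraries (-0.67, SE 0.45, edgeR adjusted p = 1). Cd200 measured 70.5, 48.1, 57.6 and 51.5 CPM in the libraries labelled Irf1-deleted, against 52.3, 62.3, 33.4 and 34.2 CPM in the Irf1-floxed libraries (0.32, SE 0.45, edgeR adjusted p = 1). The groups overlapped in both comparisons.

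Tnfrsf9 (ENSMUSG00000028965, mm10 chr4:150914562-150946102, plus strand) varied least between libraries. It measured 86.99, 154, 153 and 126 CPM in the Ikbkb-deleted libraries and 165, 137, 223 and 111 CPM in the Ikbkb-floxed libraries (log2 fold change -0.29 with SE 0.34, edgeR adjusted p = 1). Ikbkb-deleted replicate 1, the library with the highest cDC1 sum, was the lowest of the 8 for Tnfrsf9, while it was the highest deleted library for the other 9 genes. With Irf1 deleted by label, Tnfrsf9 measured 48.1, 66.9, 31.5 and 65.2 CPM, against 53.6, 36.6, 78.2 and 115 CPM in the Irf1-floxed libraries (-0.42, SE 0.34, edgeR adjusted p = 1). The 95% interval of the fold was the narrowest of the 10 genes, at 0.5 to 1.34 for the Ikbkb deletion and 0.456 to 1.23 for the Irf1 deletion.

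Tnfrsf4 (ENSMUSG00000029075, mm10 chr4:156013843-156016612, plus strand) measured 93.5, 59.9, 27.1 and 26.9 CPM in the Ikbkb-deleted libraries and 33.2, 41.99, 321 and 48.9 CPM in the Ikbkb-floxed libraries (log2 fold change -1.10 with SE 0.71, edgeR adjusted p = 1). The highest control held 6.57 times the next one, and without it the log2 fold change was 0.31. It measured 22.1, 12.5, 15.8 and 15.3 CPM in the libraries labelled Irf1-deleted and 17.2, 25.2, 11.6 and 67.7 CPM in the Irf1-floxed libraries (-0.89, SE 0.71, edgeR adjusted p = 1). Here the 4 deleted libraries lay close together and inside the range of the controls. Regulatory T cell genes, which mark another cell known for Tnfrsf4 and Tnfrsf9, summed to 568 CPM in Ikbkb-floxed replicate 3, while the next highest library, Ikbkb-deleted replicate 1, held 151 CPM, and their part in the level of either receptor was not tested.

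A test of the difference between both deletions asked whether any of the 10 genes differed otherwise in the libraries labelled Irf1-deleted than in the Ikbkb-deleted ones, each set against its own floxed group. No gene passed, and edgeR called 0% of 16040 genes, with 455 (217 higher and 238 lower) at an unadjusted p under 0.05 and 12 (0.0748%) called by DESeq2, none of them among the 10. The differences of log2 fold changes had a median of 0.08, beside 0.04 over all genes, and ran from -0.27 for Pdcd1lg2 to 0.99 for Cd200. For Cd200 the SE was 0.63 and the edgeR adjusted p was 1. Their intervals were wide, and for Cd40 the ratio of both folds lay between 0.374 and 4.83.

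The floxed groups, which lack either deletion, differed from each other for several of these genes. All 10 had a lower mean in the Irf1-floxed than in the Ikbkb-floxed libraries, at a median of -1.49 on the log2 scale (-0.01 over all genes), and 3 passed, namely Cd83, Cd274 and Tnfrsf9. In this comparison edgeR called 12.6% of 16040 genes, 1081 higher and 937 lower. Cd83 averaged 136 ± 64.2 CPM in the Irf1-floxed libraries and 1118 ± 1333 CPM in the Ikbkb-floxed libraries (log2 fold change -3.04 with SE 0.79, edgeR adjusted p = 0.0228, SD, n = 4 each). Cd274 averaged 23.0 ± 16.1 CPM in the Irf1-floxed and 128 ± 153 CPM in the Ikbkb-floxed libraries (-2.48, SE 0.76, edgeR adjusted p = 0.0442). Tnfrsf9 averaged 70.8 ± 33.8 CPM in the Irf1-floxed and 158.8 ± 47.9 CPM in the Ikbkb-floxed libraries (-1.17, SE 0.34, edgeR adjusted p = 0.036). Of the other 7, Cd200 (-1.43), Cd80 (-1.56), Tnfrsf4 (-1.87), Cd40 (-1.55) and Pdcd1lg2 (-1.39) had an unadjusted p under 0.05 and did not pass. Cd86 (-1.34) and Icosl (-0.72) had a larger p. The 2 floxed groups had no overlap for Cd80 and Cd83, as for 17.5% of all genes.

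Each of these 3 calls depended on single libraries. Without Ikbkb-floxed replicate 3 none passed, with Cd83 at -1.73 (edgeR adjusted p = 0.0755), Cd274 at -1.17 (0.219) and Tnfrsf9 at -0.96 (0.0801). The call of Cd83 was also lost without Irf1-floxed replicates 1, 2 or 3. That of Cd274 was lost without any single library other than Ikbkb-floxed replicate 4, and that of Tnfrsf9 without any other than Ikbkb-floxed replicate 4 and Irf1-floxed replicate 4. Limma voom with quality weights passed 4 of the 10, the same 3 and Cd80, where it called 25.7% of all genes. DESeq2 passed 7, the same 3 with Cd40, Cd80, Cd200 and Tnfrsf4, where it called 19.8% of all genes. Fibroblast and endothelium genes had higher means in the Irf1-floxed libraries in 14 of 14 cases, 8 of them past the threshold that 12.6% of all genes passed, and summed to 11605 to 31414 CPM against 9338 to 9643 CPM in the Ikbkb-floxed libraries. Mature dendritic cell genes had lower means in 15 of 15 cases, and summed to 1892 to 2661 CPM in the Irf1-floxed against 3391 to 10653 CPM in the Ikbkb-floxed libraries. Of these 15 genes 3 passed, a share near that of all genes. B cell genes summed to 29.7 to 67.6 CPM in the Irf1-floxed and 107 to 363 CPM in the Ikbkb-floxed libraries, and neutrophil genes to 465 to 952 CPM in the Irf1-floxed and 188 to 357 CPM in the Ikbkb-floxed libraries, without overlap in either case. T and NK cell genes had a lower mean in 19 of 19 cases, with overlapping sums of 72.6 to 799 CPM in the Irf1-floxed and 316 to 2059 CPM in the Ikbkb-floxed libraries. The part of these cells in the values of the 10 genes was not tested. Each floxed group is the control of 1 deletion only, so its allele and anything else shared by its set of libraries cannot be told apart. These libraries are also the controls of both deletion comparisons, so the 3 comparisons are not independent.

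The order of group means was Ikbkb-floxed, Ikbkb-deleted, Irf1-floxed and Irf1-deleted from high to low for 9 of the 10 genes. For Cd200 the libraries labelled Irf1-deleted (56.9 ± 9.87 CPM) stood above the Irf1-floxed libraries (45.5 ± 14.2 CPM, SD, n = 4 each). Neighbouring groups in this order overlapped for every gene with the exception of Cd83, for which the Ikbkb-deleted libraries did not overlap the Irf1-floxed libraries. The first place of the Ikbkb-floxed group leaned on its replicate 3, without which 8 of the 10 genes had a higher mean in the Ikbkb-deleted libraries. By median, Cd83 (661 against 523 CPM), Cd86 (141 against 106) and Cd40 (88.8 against 88.0) were higher in the Ikbkb-deleted than in the Ikbkb-floxed libraries, and the other genes lower. The share of all genes with this order of means was not counted.

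The 10 genes were next set against scores of cell markers, each the mean log2 CPM of a list that holds none of the 10. All 10 rose with the mature dendritic cell score over the 16 libraries, at Pearson r from 0.60 to 0.95, and all 10 passed at an adjusted p under 0.05 over 60 relations. In all, 34 of the 60 passed. The share of all genes that pass against any of these scores was not counted. These counts and those that follow are therefore not read as particular to the 10. For Cd40 r was 0.95 and Spearman's rho 0.93 (permutation p = 1e-05 for each, the smallest that 100000 resamples give, adjusted p = 0.0001 and 0.00024). Without the 2 libraries farthest from the median score r was 0.95. It was 0.98 within the 8 Ikbkb-set libraries and 0.87 within the 8 Irf1-set libraries (exact permutation p = 7.44e-05 and 0.00754). For Cd83 r was 0.94 and rho 0.91 (permutation p = 1e-05 for each), and r was 0.95 without those 2 libraries, 0.93 within the Ikbkb set and 0.85 within the Irf1 set. For Cd274 r was 0.95 and rho 0.88 (permutation p = 1e-05 and 2e-05), with r of 0.92 without those 2 libraries and of 0.97 within the Ikbkb set and 0.83 within the Irf1 set. Cd40, Cd83 and Cd274 thus kept the relation within each set and without the extreme libraries. So did Icosl, Pdcd1lg2, Cd86 and Tnfrsf4, with r of 0.90, 0.87, 0.79 and 0.76 within the Irf1 set. Cd80 was weaker, at 0.77 within the Ikbkb set and 0.60 within the Irf1 set.

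Tnfrsf9 stood lowest among the 10, with r 0.60 and rho 0.61 (permutation p = 0.0122 and 0.0135, adjusted p = 0.0229 and 0.0299). Its r was 0.47 without the 2 libraries farthest from the median. Within the Ikbkb set it was 0.33 and within the Irf1 set -0.04, so its relation did not hold within the sets. Cd200 held within the Ikbkb set (0.95) and was weak within the Irf1 set (0.27). Against the cDC1 identity score 8 of the 10 genes passed, led by Icosl at r 0.89 and rho 0.90 (permutation p = 2e-05 for each), with 0.80 without the 2 farthest libraries, 0.92 within the Ikbkb set and 0.88 within the Irf1 set. Cd80 (r 0.53, rho 0.24, permutation p = 0.0354 and 0.359) and Tnfrsf9 (r 0.09, rho 0.02, permutation p = 0.728 and 0.935) did not pass. The r of Cd80 rested on the 2 libraries with the highest cDC1 score, and was -0.07 without them. Without the same 2 libraries r fell to 0.35 for Cd83, 0.35 for Cd274, 0.34 for Pdcd1lg2, 0.39 for Cd200 and 0.30 for Tnfrsf4. It was 0.67 for Cd40 and 0.72 for Cd86. By rho, Cd83, Cd274, Pdcd1lg2 and Tnfrsf4 did not pass (permutation adjusted p = 0.0732, 0.0803, 0.0651 and 0.0611).

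T and NK cell genes were related to 9 of the 10 genes, with r from 0.52 for Cd200 (permutation p = 0.0415, adjusted p = 0.0639), which did not pass, to 0.87 for Tnfrsf4 (rho 0.82, adjusted p = 0.00015 and 0.00172). Within the sets these values ran from 0.49 to 0.81 in the Ikbkb set and from -0.10 to 0.90 in the Irf1 set. Against fibroblast and endothelium genes all 10 values were negative and 6 passed, but within the sets r ran from -0.16 to 0.41 in the Ikbkb set and from -0.61 to 0.18 in the Irf1 set, and no value within a set had an exact permutation p under 0.0916. In the Ikbkb set 2 of the 10 values were negative and in the Irf1 set 9, so the pooled direction was not found in the Ikbkb set. No gene passed against macrophage and monocyte genes, and only Tnfrsf9 passed against B cell genes (r 0.56, rho 0.44, permutation p = 0.0225 and 0.0897, adjusted p = 0.0398 and 0.139). RNA of every cell type in a library shares 1 total, so these relations are not independent of each other.

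**Figure D3:**
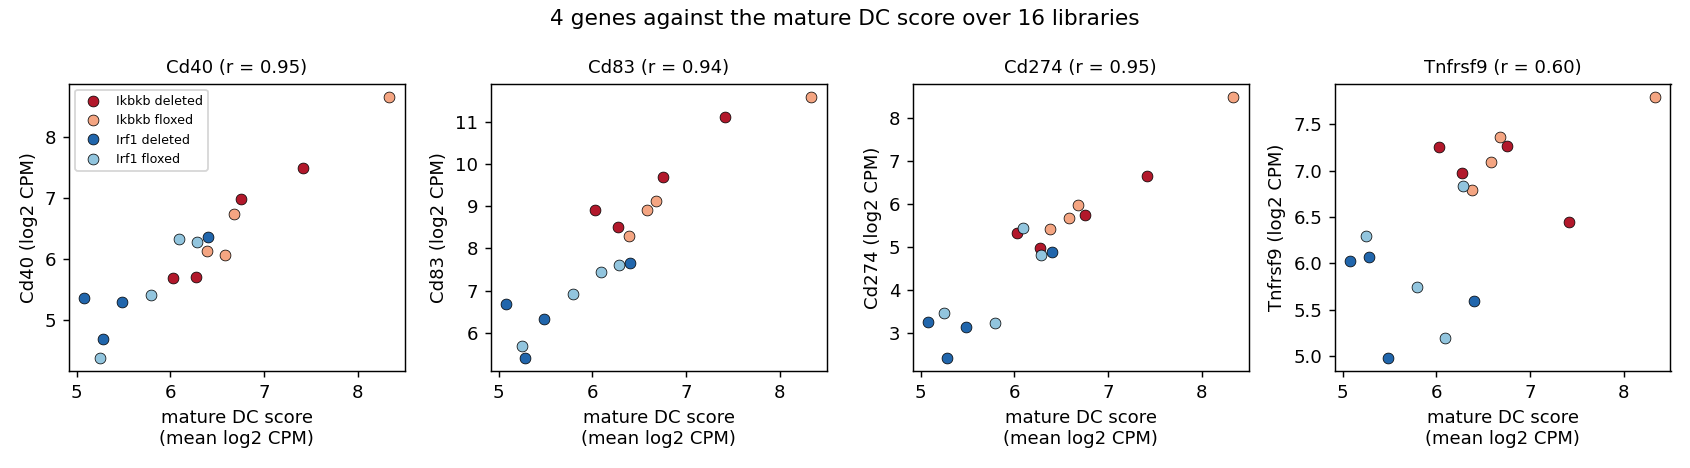
Log2 CPM of Cd40, Cd83, Cd274 and Tnfrsf9 (vertical axes) against the mature dendritic cell score (horizontal axes, mean log2 CPM), with 1 point for each of 16 libraries coloured by group. The first 3 genes follow the score closely, with r of 0.95, 0.94 and 0.95, while Tnfrsf9 splits by set with little slope inside either (r 0.33 and -0.04).

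**Figure D4:**
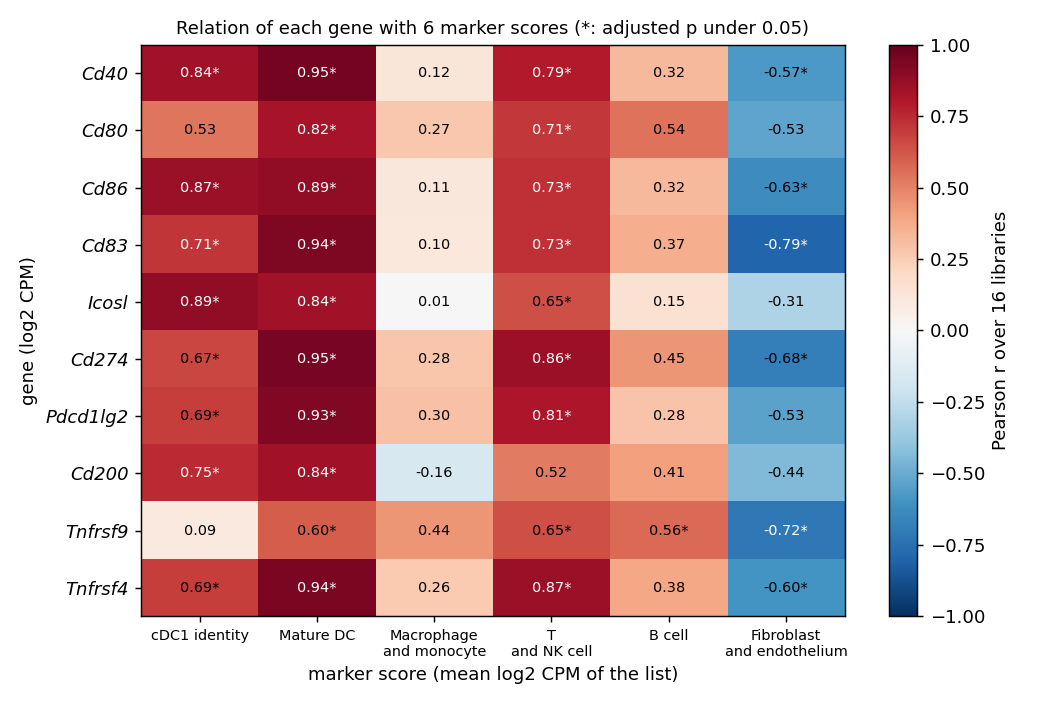
Pearson r over 16 libraries between log2 CPM of each of the 10 genes (rows) and 6 marker scores (columns), with an asterisk at an adjusted p under 0.05. The mature dendritic cell column holds an asterisk for all 10 genes and the macrophage and monocyte column for none. The share of all genes that would hold an asterisk was not counted.

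Among themselves the 10 genes gave 45 pairs, all with a positive r (0.24 to 0.94), of which 41 passed at an adjusted p under 0.05. Within the Ikbkb set these 41 values ran from 0.22 to 0.97 and within the Irf1 set from -0.27 to 0.97. In the Irf1 set 5 of them were negative, namely those of Cd200 with Cd80 (-0.27), Tnfrsf4 (-0.18) and Pdcd1lg2 (-0.16) and those of Tnfrsf9 with Cd83 (-0.07) and Cd274 (-0.06), so these 5 pooled values did not hold there. By rho, Cd80 with Cd200, Icosl and Tnfrsf9 and Cd200 with Tnfrsf4 did not pass either (permutation adjusted p = 0.233, 0.0815, 0.0565 and 0.0545). Without the 2 libraries farthest from the median of its first gene, r of Cd200 with Tnfrsf4 fell from 0.72 to 0.18. The share of all gene pairs that pass was not counted, so the count of 41 is not read as particular to these genes. The closest pairs were Cd83 with Cd274 (r 0.94, rho 0.92) and Cd40 with Cd86 (r 0.94, rho 0.93), each with a permutation p of 1e-05 for both measures and an adjusted p of 3.75e-05 for r. Within the Ikbkb and the Irf1 set Cd83 with Cd274 gave 0.91 and 0.84, and Cd40 with Cd86 gave 0.91 and 0.94. The 4 pairs that did not pass by r all held Tnfrsf9, namely those with Cd40, Cd86, Icosl and Cd200. With Cd200 its r was 0.38 in the Ikbkb set and -0.82 in the Irf1 set (exact permutation p = 0.0138, not adjusted), where Cd200 was low in libraries with high Tnfrsf9.

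A measure of likeness, the root mean square difference of standardised log2 CPM over the 16 libraries, named the 3 genes nearest to each of the 10 among 11158 compared, where the median gene stood at about 1.4. Cd83 lay nearest to Ccr7, the chemokine receptor of migrating dendritic cells, at 0.178. Cd40 lay nearest to Traf1, an adaptor of TNF-family receptors, at 0.177, then to Myo1g (0.262) and Rogdi (0.264). Tnfrsf4 lay nearest to Tnfrsf18, a receptor of the same family known on regulatory T cells, at 0.188, then to Srgn (0.276). Cd200 lay nearest to Fscn1, an actin-bundling protein of mature dendritic cells, at 0.254. Cd274 lay nearest to Serpinb9, a granzyme B inhibitor, at 0.23, then to Samsn1 (0.317). Cd86 lay nearest to Mbp (0.222), Napsa (0.266) and Cd48 (0.269), and Icosl to Lcp1, an actin-bundling protein of leukocytes (0.318). The nearest genes to Cd80, Tnfrsf9 and Pdcd1lg2 were farther off, namely Mxd1 (0.435), Ccl7 (0.393) and Pcgf5 (0.336). None of these nearest genes was itself among the 10.

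Partners of the 10 genes were taken from 4 lists. Unlike those of the 10 genes, their values were not examined without single libraries such as Ikbkb-floxed replicate 3. In the Ikbkb deletion, the Irf1 deletion and the difference between them no member of any list passed. Of 15 other B7 and immunoglobulin-family ligands tested, 11 had a lower mean in the Ikbkb-deleted libraries (median log2 fold change -0.15), and 9 in the libraries labelled Irf1-deleted (median -0.04). The members with the smallest p were Lgals9, a ligand of TIM-3, at 185 ± 59.6 CPM in the Ikbkb-deleted and 255 ± 120 CPM in the Ikbkb-floxed libraries (-0.47, SE 0.31), and Nectin3 (0.40, SE 0.27). In the Irf1 comparison they were Ceacam1 (-0.73, SE 0.72) and Cd276, also named B7-H3 (-0.44, SE 0.48).

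Ligands of the TNF superfamily, which include the partners of Tnfrsf9 and Tnfrsf4, had a lower mean in 11 of 12 cases in the Ikbkb-deleted libraries (median -0.87) and in 7 of 12 in the libraries labelled Irf1-deleted (median -0.33). Tnfsf8, the CD30 ligand, averaged 2.30 ± 1.41 CPM in the Ikbkb-deleted libraries and 8.36 ± 5.39 CPM in the Ikbkb-floxed libraries (-1.86, SE 0.67, edgeR adjusted p = 0.973). Tnfsf10, the TRAIL gene, averaged 2.37 ± 1.76 CPM in the Ikbkb-deleted and 8.65 ± 4.04 CPM in the Ikbkb-floxed libraries (-1.86, SE 0.84). In the Irf1 comparison Tnfsf4, the OX40 ligand (-3.39, SE 1.76), and Fasl (-2.45, SE 1.28) had the smallest p, at means of at most 1.35 CPM. Receptors on T cells had a lower mean in 13 of 14 cases in the Ikbkb-deleted libraries (median -1.10) and in 10 of 14 in the libraries labelled Irf1-deleted (median -0.49). Tigit averaged 1.54 ± 0.921 CPM in the Ikbkb-deleted libraries and 5.90 ± 5.09 CPM in the Ikbkb-floxed libraries (-1.93, SE 0.71, edgeR adjusted p = 0.974), and Lag3 gave -2.14 (SE 0.99). Cd28 averaged 1.97 ± 0.382 CPM in the libraries labelled Irf1-deleted and 5.09 ± 2.61 CPM in the Irf1-floxed libraries (-1.37, SE 0.59, edgeR adjusted p = 1), and Cd5 gave -1.04 (SE 0.84). T and NK cell marker genes also had lower means in the same deleted libraries, as given with each deletion. Their part in the values of these receptors was not tested.

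The list of signalling genes behind CD40 and the TNF receptors had 22 members, of which 18 had a lower mean in each deletion (median -0.34 in the Ikbkb and -0.18 in the Irf1 comparison). Ikbkb itself and Traf5 (-0.56, SE 0.33) had the smallest p in the Ikbkb comparison, and Tnfaip3 (-0.45, SE 0.35) and Map3k14, the kinase NIK (-0.71, SE 0.57), in the Irf1 comparison. Between the floxed groups 5 of the 63 members tested on the 4 lists passed (7.94%, below the 12.6% of all genes), and each had a lower mean in the Irf1-floxed libraries, so nothing is read about the lists from that count. Nfkbia, the NF-kB inhibitor that NF-kB itself induces, averaged 263 ± 55.8 CPM in the Irf1-floxed and 873 ± 328 CPM in the Ikbkb-floxed libraries (-1.73, SE 0.24, edgeR adjusted p = 0.00391). Tnfaip3, the feedback inhibitor A20, averaged 69.6 ± 25.8 CPM in the Irf1-floxed and 233 ± 114 CPM in the Ikbkb-floxed libraries (-1.74, SE 0.36, edgeR adjusted p = 0.00884). The 4-1BB ligand gene Tnfsf9 averaged 14.1 ± 2.82 CPM in the Irf1-floxed and 43.6 ± 36.5 CPM in the Ikbkb-floxed libraries (-1.62, SE 0.46, edgeR adjusted p = 0.0335). Ctla4, the receptor that competes for Cd80 and Cd86, averaged 10.1 ± 8.86 CPM in the Irf1-floxed and 74.7 ± 96.3 CPM in the Ikbkb-floxed libraries (-2.89, SE 0.86, edgeR adjusted p = 0.0393). Lgals3 averaged 418 ± 146 CPM in the Irf1-floxed and 908 ± 514 CPM in the Ikbkb-floxed libraries (-1.12, SE 0.33, edgeR adjusted p = 0.0384). Lower values of these genes in the Irf1-floxed libraries stood beside higher fibroblast, endothelium and neutrophil sums and lower B cell sums. Mature dendritic cell sums were lower there too, at 1892 to 2661 CPM against 3391 to 10653 CPM in the Ikbkb-floxed libraries. For the T cell gene Ctla4, T and NK cell sums had a median of 199 CPM in the Irf1-floxed and 448 CPM in the Ikbkb-floxed libraries. The part of cell makeup in the values of these genes was not tested. Whether these 5 calls hold without single libraries was not examined. In the Ikbkb-floxed libraries the SD of Ctla4 (96.3 CPM) exceeded its mean (74.7 CPM), and that of Tnfsf9 was 36.5 CPM beside a mean of 43.6 CPM.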

How the data were processed

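Per the labels' protocols, SMART-Seq v4 turned 1000 pg of RNA into full-length cDNA in 12 cycles of PCR, and Nextera XT made the libraries. The deposited table of the authors holds unnormalized counts, 1 row for each Ensembl gene. HTSeq 0.6.1p1 and STAR 2.5.3a on build mm10, besides cutadapt 1.10 and bcl2fastq 2.17.1.14, are named in the submitters' processing notes, and the strand setting and annotation are not given in the sources used here. Of 32697 gene IDs, 32684 matched GENCODE M21, the source of symbols, coordinates and exon lengths, and 13 did not. Amplified reads are not independent molecules, so counting error alone would understate the spread, and replicates differed by a chi-square per gene of 44.9 to 301.

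Counts were fitted in R 4.3.3 with edgeR 4.0.16. The function filterByExpr (minimum count 10, minimum total 15) kept 16040 genes, libraries were scaled by TMM, and a quasi-likelihood fit of group means used all 16 libraries, with 12 residual degrees of freedom. P-values were adjusted by Benjamini-Hochberg over all genes tested, and a gene was called at an adjusted p under 0.05. The SE of a log2 fold change is approximate, from the fold change and its F statistic. Log2 CPM used a prior count of 2. Correlations were tested by two-sided permutation with 100000 resamples (exact within 8 libraries), adjusted over 60 relations with marker scores and over 45 pairs. The permutations over 16 libraries took no account of set or group, so their p-values also take in differences between the sets. The alternatives run were DESeq2 1.42.0, voom of limma 3.58.1, RLE scaling, upper-quartile scaling, fits without a filter or at 5 CPM in 4 libraries, fits of only the 8 libraries of a contrast, and fits that leave out 1 library. The fit was tested on simulated data. The 10 genes, the marker and pathway lists and the tests were chosen with earlier results of these data known. Named genes are the 10, both targeted genes, list members past the threshold or else the 2 with the smallest p of each deletion, and the 3 nearest genes by likeness among annotated genes whose mean log2 CPM was 1 or more.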

Additional observations from a re-analysis of the deposited data

Results flagged for a closer look

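Of 40 groups of 4 libraries (10 genes in 4 groups), 7 held a library whose gap to the nearest other exceeded Dixon's limit. The limit was applied to CPM and not to log2 CPM. Its rate of about 1 in 20 groups by chance holds for normally distributed values, so no excess over chance is read from these 7. In 6 of these the library was Ikbkb-floxed replicate 3, so they are not independent of each other. It held 403.2 CPM for Cd40, 65.8 CPM for Cd80, 412.4 CPM for Cd86, 3112 CPM for Cd83, 358.2 CPM for Cd274 and 321.0 CPM for Tnfrsf4, each the highest of its group. Its mature dendritic cell sum (10653 CPM), T and NK cell sum (2059 CPM) and regulatory T cell sum (568 CPM) were the highest of the 16 libraries, and its cDC1 sum (10078 CPM) was the second highest. Irf1-floxed replicate 1 was the lowest of its group for Cd80, at 6.76 CPM, beside 11.02 to 11.5 CPM in the other 3.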

How the results depend on the processing

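No paired analysis was possible because the labels give no replicate numbers. None of the 10 genes was called in either deletion or in the difference between the deletions under any of the settings run. Over all genes DESeq2 called 38 for the Ikbkb deletion, 6 for the Irf1 deletion and 12 for the difference, against 0 with edgeR in each, and leaving out single libraries gave 0 to 1, 0 to 0 and 0 to 1. Between the floxed groups the count of called genes was 1199 with no filter, 3171 with DESeq2, 4130 with limma voom and 782 to 2404 without single libraries. Of the 10 genes, 3 were called there, against 1 with no filter, 5 with the filter of 5 CPM, 7 with DESeq2 and 0 to 4 without single libraries. Settings chosen after the data were seen gave 1 called without Ikbkb-floxed replicate 3 and Ikbkb-deleted replicate 1, 6 with the cDC1 identity score as covariate and 1 with the mature dendritic cell score as covariate, which was Icosl at 1.43 (edgeR adjusted p = 0.0263), higher in the Irf1-floxed libraries. With the mature dendritic cell score Cd83 was at -0.80 (0.123), Cd274 at -0.33 (0.613) and Tnfrsf9 at -1.06 (0.107). The share of all genes called is not given here for the filter of 5 CPM or for the settings chosen after the data were seen. Their counts are therefore not read as particular to the 10.

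The following log2 fold changes changed sign. In the Ikbkb deletion Cd86 was 0.0065 with upper-quartile scaling, and limma voom gave 0.28 for Cd86, 0.46 for Cd83 and 0.20 for Pdcd1lg2. Without both high libraries Cd86 was 0.23, Cd83 0.31, Pdcd1lg2 0.10 and Tnfrsf9 0.074, and with the mature dendritic cell score Cd40 was 0.080, Cd86 0.62, Cd83 0.70, Icosl 0.17 and Pdcd1lg2 0.32. In the Irf1 deletion that score gave 0.24 for Cd40, 0.28 for Cd86 and 0.17 for Cd83. In the difference between the deletions limma voom gave -0.30 for Cd274 and -0.13 for Tnfrsf4, leaving out both high libraries -0.14 for Cd40, -0.47 for Cd274 and -0.75 for Tnfrsf4, the cDC1 score -0.11 for Cd274, and the mature score -0.34 for Cd274 and -0.088 for Tnfrsf4. Between the floxed groups Icosl was 0.26 without both high libraries, and the mature score gave 0.25 for Cd40, 0.37 for Cd86, 0.48 for Pdcd1lg2 and 0.20 for Tnfrsf4. With scores from summed CPM, 46 of 60 relations passed in place of 34, and r with macrophage and monocyte genes was -0.18 for Cd40, -0.21 for Cd86, -0.19 for Cd83, -0.25 for Icosl and -0.025 for Cd274. The cause was not tested in any of these cases.

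Without single libraries the Ikbkb values ranged from -1.09 to 0.33 for Cd40, -0.64 to 0.83 for Cd86, -0.999 to 1.101 for Cd83, -1.36 to 0.51 for Icosl, -1.63 to 0.12 for Cd274, -0.94 to 0.47 for Pdcd1lg2, -1.03 to 0.072 for Cd200 and -1.56 to 0.31 for Tnfrsf4, while Cd80 and Tnfrsf9 stayed negative. The Irf1 values ranged from -0.65 to 0.0039 for Cd40 and from -0.73 to 0.22 for Cd86, and the other 8 kept their sign. The difference between the deletions ranged from -0.55 to 0.87 for Cd40, -0.21 to 1.04 for Cd80, -0.90 to 0.56 for Cd86, -1.44 to 0.66 for Cd83, -1.03 to 0.85 for Icosl, -0.90 to 0.90 for Cd274, -1.29 to 0.18 for Pdcd1lg2, -0.34 to 0.20 for Tnfrsf9 and -1.20 to 0.97 for Tnfrsf4. Between the floxed groups Icosl ranged from -1.02 to 0.26.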

Other observations

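The ratio of Cd86 to Cd80, each per kilobase of exon, was formed within each library after the values were seen, so it is a description with no test. It ran from 7.83 to 23.0 (median 10.9) in the Ikbkb-deleted libraries and from 4.74 to 6.34 (median 5.65) in the Ikbkb-floxed libraries, and these did not overlap. The share of other gene pairs whose ratio separates these libraries was not counted, so nothing is read from it. In the libraries labelled Irf1-deleted the ratio of Cd86 to Cd80 ran from 2.66 to 16.8, and in the Irf1-floxed libraries from 2.60 to 9.75. The ratio of Cd274 to Pdcd1lg2 overlapped in both sets, at 1.16 to 1.43 in the Ikbkb-deleted and 1.28 to 3.08 in the Ikbkb-floxed libraries, and at 0.417 to 1.29 in the libraries labelled Irf1-deleted and 0.641 to 1.73 in the Irf1-floxed libraries.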
